A study of Arabidopsis thaliana with 4 samples.

Results

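The PYR and PYL genes encode the soluble receptors of abscisic acid, the plant hormone of drought responses and seed dormancy. The genes described are PYR1 and PYL1 to PYL9, 10 of the 27444 protein-coding genes placed on the nuclear chromosomes. They were found by locus identifier, and a peak was assigned to a gene when it touched the gene body or the 1 kb on either side. Of 3668 nuclear peaks in ChIP replicate 1, 3 met this rule, and of 3487 in ChIP replicate 2, 4 did. The genes were chosen for these peaks, so their peaks and scores are given as a description and were not tested.

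SHORT LIFE (SHL) is a chromatin reader whose BAH and PHD domains recognise methylated histone H3. Chromatin was taken from whole Col-0 seedlings of about 10 days, kept in days of 16 h light and 8 h dark. Every sample came from ebs shl double mutants that carried HA-tagged SHL driven from the native SHL promoter, so the transgene and both mutations are shared by ChIP and input. The samples were 2 ChIP samples precipitated with anti-HA and 2 input samples without antibody. Each ChIP sample had its own list of peaks, and the input samples entered no comparison here. The labels do not say whether the replicates were separate cultures, so the spread between them may be technical. Seedlings were taken whole, so a low score cannot be told apart from binding in a small share of the cells.

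A receptor of this family closes over the hormone and then blocks clade A protein phosphatases 2C (PP2C), which otherwise keep SnRK2 kinases inactive. The freed kinases phosphorylate transcription factors of the ABF and ABI5 type and ion channels of guard cells. PYR1, PYL1, PYL2 and PYL3 form the subfamily of receptors that are dimers without hormone. Of the 10 genes, PYL4 to PYL6 belong to another subfamily and PYL7 to PYL9 to a further one, both of mostly monomeric receptors.

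Peaks lay on PYL2, PYL5 and PYL6 in both replicates, and on none of the other 7 receptor genes in both. In replicate 1, 3 of the 10 receptor genes had a peak, against 14.8% of all protein-coding genes, and in replicate 2, 4 of 10 had one, against 14.4%. The 3 genes with a peak in both compare with 8.66% of all protein-coding genes, or 2378 (exact 95% interval 8.33 to 9, counting error only). The receptor genes are short, at 986 to 2109 bp against a median of 2078 bp for all protein-coding genes. Among the 9782 protein-coding genes within that range of length, 10.5% had a peak in both replicates. Since the genes were picked on these peaks, nothing is read from the difference.

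Each list gives a score per peak from the authors' peak caller, by the caller's convention a p-value on a negative log10 scale multiplied by 10. The lists carry no header to state this, and read depth is unknown, so scores were ranked within a list only. Scores ran from 20.01 to 3217 in replicate 1, with a median of 39.1. They ran from 20 to 3220 in replicate 2, with a median of 39.9.

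PYL6 (AT2G40330), whose product also binds the jasmonate regulator MYC2, had a peak of 62.7 in replicate 1 and one of 94.9 in replicate 2. These scores exceeded 64.6% of the nuclear peaks of replicate 1 and 70.6% of those of replicate 2. The peaks formed a common region at chromosome 2, 16844717 to 16846261, in the TAIR10 build. They covered 92.0% of the gene body in replicate 1 and 78.7% in replicate 2. The body is 1607 bp long, and the peaks reached past it by 67 bp and 42 bp, both at the end of higher coordinate.

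PYL5 (AT5G05440), a receptor of the same subfamily, had a peak of 51.9 in replicate 1 and one of 122.7 in replicate 2. Replicate 1 ranked it below the other receptor peaks, above 59.7% of its list, while replicate 2 ranked it highest among them, above 73.2%. The common region lay at chromosome 5, 1608823 to 1610456. It held 74.2% of the body in the peak of replicate 1 and 95.4% in that of replicate 2. Here the peaks ran past the end of lower coordinate, by 165 bp and 114 bp.

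PYL2 (AT2G26040), a receptor of the dimeric subfamily, scored 56.3 in replicate 1 and 54.8 in replicate 2. Its ranks were the closest of the 3 genes, above 62.0% of the peaks of replicate 1 and 60.6% of those of replicate 2. The common region lay at chromosome 2, 11094344 to 11095793. The peaks covered 83.9% of the body in replicate 1 and 93.3% in replicate 2, and ran past the end of higher coordinate by 223 bp and 251 bp.

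The order of the 3 genes by score was PYL6, PYL2, PYL5 in replicate 1 and PYL5, PYL6, PYL2 in replicate 2, so the lists do not give one order. In both lists the 3 genes had scores above the list's median, at ranks of 59.7% to 73.2%, and far below the highest scores. They had 1 peak each per replicate, and all 6 peaks had their midpoint inside the receptor gene. None of the 6 touched another protein-coding gene. The nearest protein-coding neighbours of PYL2 are AT2G26030 and AT2G26050, those of PYL5 are AT5G05430 and AT5G05450, and those of PYL6 are TBL33 and DREB2C. Of these 6 neighbours, AT2G26050 alone had a peak on its body, of 28.8 in replicate 1.

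**Figure D1:**
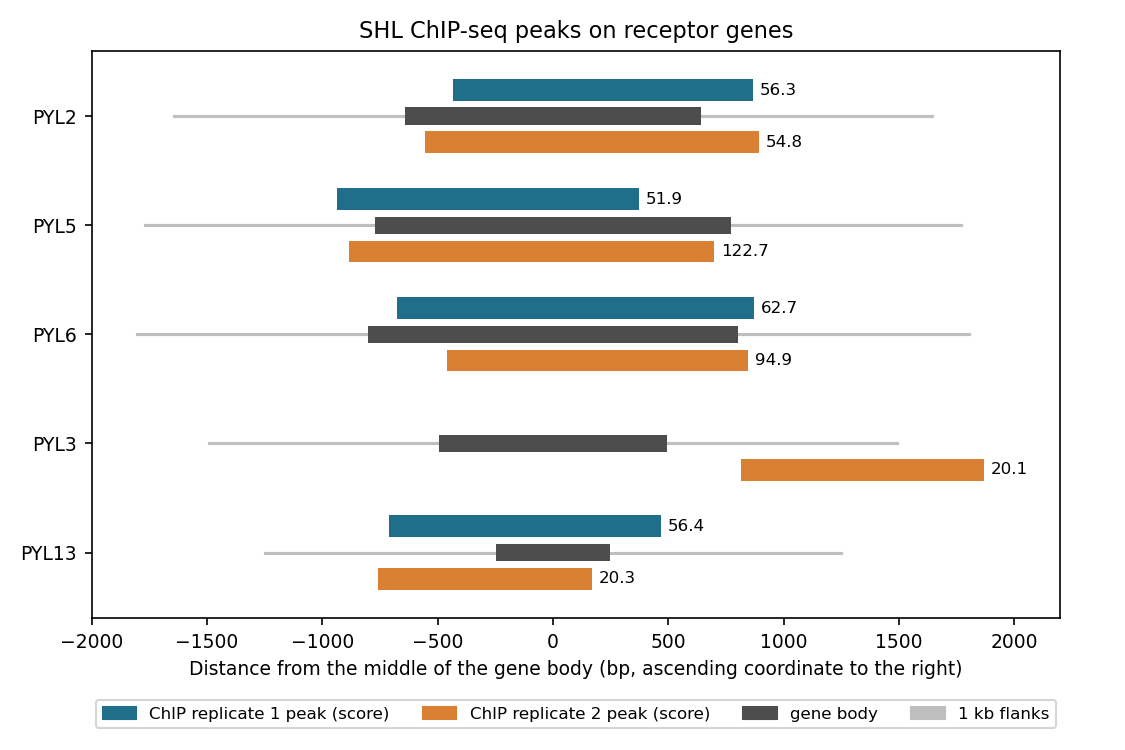
Peaks on the receptor genes PYL2, PYL5, PYL6, PYL3 and PYL13, drawn as bars above (ChIP replicate 1) and below (ChIP replicate 2) the gene body, with distance from the middle of the body in bp on the horizontal axis and the score beside each peak. On PYL2, PYL5 and PYL6 the peaks of both replicates cover 74.2% to 95.4% of the body, on PYL3 the one peak lies 324 bp outside it, and on PYL13 the peaks are wider than the gene.

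The replicates placed these peaks at nearly the same positions. On PYL2 they shared 1301 bp, which was 100% of the peak of replicate 1 and 89.7% of that of replicate 2. On PYL6 they shared 1306 bp, or 84.5% and 100%. On PYL5 they shared 1257 bp, or 96.1% and 79.4%. Over the 2056 common regions of the series that hold 1 peak from each replicate, the median shared part was 95.4% of the peak of replicate 1 and 84.2% of that of replicate 2, so the 3 receptor regions lie near the usual overlap. The overlap criterion itself, with peaks of both replicates sharing at least 1 bp, was met by 8.08% of all protein-coding genes.

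Among common regions the receptor regions were of ordinary width, at 1450 bp for PYL2, 1545 bp for PYL6 and 1634 bp for PYL5. The median over all 2186 common regions was 1571 bp. Within the single lists, the peaks of these 3 genes were wider than 56.8% to 79.8% of the nuclear peaks. All 3 regions had their midpoint in the gene body, a place held by such a midpoint in 4.58% of protein-coding genes. Coverage of the receptor bodies was above the median of the 1608 genes (5.86% of protein-coding genes) with a peak on the body in both replicates. That median was 63.3% in replicate 1 and 67.1% in replicate 2. The 1608 genes were not matched for length, while the 3 receptor bodies were 1285 to 1607 bp long. The part of length in the coverage was not tested. Set against peaks centred in protein-coding bodies alone, the receptor peaks stood higher than in the whole list, since such peaks have a median score of 32.7 in replicate 1 and 33.3 in replicate 2. PYL6 exceeded 78.4% of them in replicate 1 and 84.1% in replicate 2. PYL5 exceeded 72.9% and 86.4%, and PYL2 75.6% and 73.1%.

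PYL3 (AT1G73000), the remaining gene with a peak, had one in replicate 2 alone. It scored 20.1, above 0.946% of its list and next to the lowest score of 20. The peak lay outside PYL3, 324 bp from the body, at chromosome 1, 27464292 to 27465344, and touched the body of the neighbouring gene PS2 (AT1G73010). In replicate 1 the nearest peak was 34.1 kb away. Genes with a peak in one replicate alone were 11.8% of all protein-coding genes.

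The other 6 receptor genes had no peak on the body or within 1 kb, and none within 2 kb either. PYL4 (AT2G38310), the closest relative of PYL5 and PYL6 in the set, came nearest to the rule, with a peak 3.71 kb away in replicate 1 and one 4.79 kb away in replicate 2. Those peaks, of 50.2 and 26.7, lay on the neighbouring gene AT2G38300. PYL9 (AT1G01360), which acts in drought resistance and leaf senescence, had its nearest peaks at 10.6 kb and 23.2 kb.

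For PYL1 (AT5G46790), a dimeric receptor, the nearest peaks were 17.5 kb and 17.2 kb away. For PYR1 (AT4G17870), found through the synthetic agonist pyrabactin, they were 20.5 kb and 20.6 kb away. PYL8 (AT5G53160), a receptor of root abscisic acid responses, had none closer than 24.6 kb in either replicate, and PYL7 (AT4G01026) none closer than 35.8 kb. PYL7, PYL8 and PYL9 thus had no peak on any of the 3, while PYL4, PYL5 and PYL6 had peaks in both replicates on 2 of 3. The dimeric subfamily had such peaks on 1 of 4, beside 8.66% of all protein-coding genes. PYL10 to PYL13 were not placed in a subfamily, so the counts of 3 genes may not cover whole subfamilies. Differences between the subfamilies were not tested. The lists do not say how many reads lay on genes without a peak, so absence of a peak is not absence of binding.

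**Figure D2:**
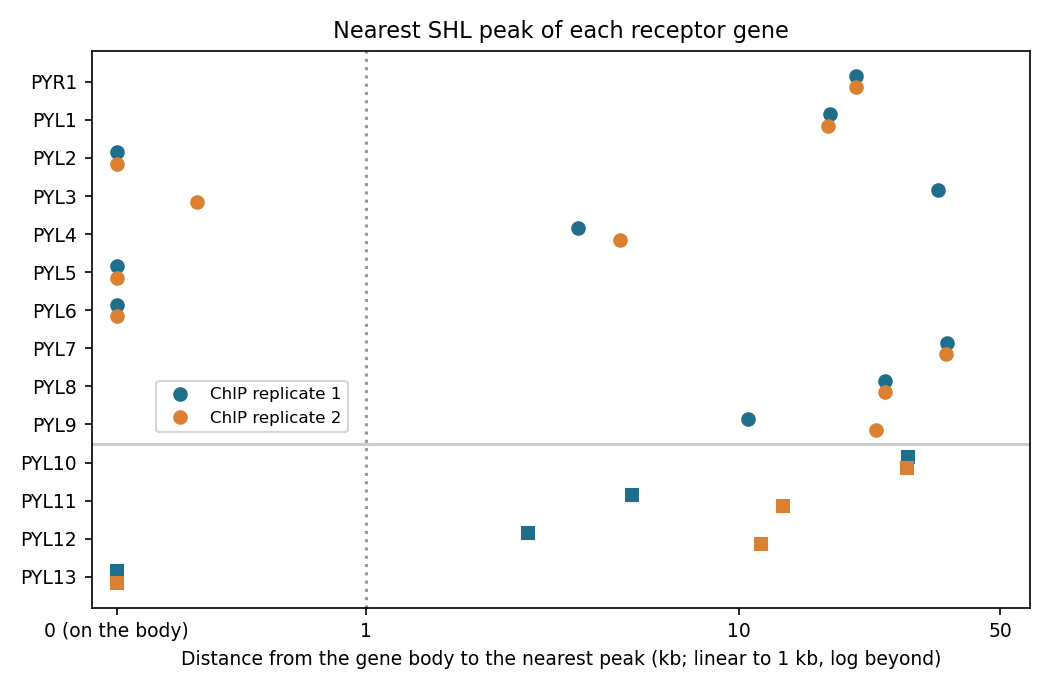
Distance in kb from each receptor gene body to the nearest peak of ChIP replicate 1 and ChIP replicate 2, on an axis that is linear up to 1 kb (dotted line, the limit of the rule) and logarithmic beyond it; circles are PYR1 and PYL1 to PYL9, squares PYL10 to PYL13. PYL2, PYL5, PYL6 and PYL13 sit at 0 in both replicates, PYL3 at 0.324 kb in replicate 2, and the nearest of the rest is PYL12 at 2.72 kb in replicate 1.

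In length and surroundings the receptor genes with peaks overlapped those without. The 3 genes with peaks in both replicates were 1285 to 1607 bp long, and the 6 without any were 1289 to 2109 bp long. Counting every peak within 50 kb, the 10 genes had 1 to 5 peaks nearby in replicate 1, with a median of 4, against a median of 3 for all protein-coding genes. In replicate 2 they had 1 to 6, with a median of 3.5, against 3. PYL2, PYL5 and PYL6 had 4, 1 and 4 peaks nearby in replicate 1 and 5, 2 and 5 in replicate 2, their own included. The 6 genes without any peak had 1 to 5 in replicate 1 and 1 to 6 in replicate 2. PYL5 was among the genes with fewest peaks nearby, with 1 in replicate 1 and 2 in replicate 2, its own included.

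Of the 4 family members outside the rule, PYL13 (AT4G18620) also had peaks in both replicates. PYL13 is an unusual receptor that can inhibit phosphatases without the hormone. Its peaks scored 56.4 in replicate 1 and 20.3 in replicate 2, above 62.2% and 1.84% of their lists. They formed a common region at chromosome 4, 10253850 to 10255073, and covered 100% and 84.0% of a gene of 495 bp. The peak of replicate 2 was centred outside the body, on the side of LSH9 (AT4G18610), which had a peak of its own of 22.8 in replicate 2. PYL10, PYL11 and PYL12 had no peak within 1 kb. PYL11 and PYL12 are neighbours on chromosome 5, and the peak of 39.3 in replicate 1 that lay nearest to both was 2.72 kb from PYL12. The whole family thus had peaks in both replicates on 4 of 14 genes, beside 8.66% of all protein-coding genes.

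The protein-coding genes outside the family that were most like PYL6 were found by the distance over the ranks and the covered shares of the body in both replicates. Only genes with peaks in both replicates and a common region midpoint in the body were searched. PYL6 was taken because its lower rank, 64.6%, was the highest among the 3 receptor genes. The nearest was PSAD-1 (AT4G02770), for a subunit of photosystem I, at a distance of 6.64 percentage points. It scored 70.4 and 85.3, and its peaks covered 98.0% and 79.2% of the body. AT5G67020 followed at 7.5, with scores of 75.4 and 104, and AT5G20740 at 8.17, with scores of 63.6 and 92.7. The likeness rests on 2 samples, and nothing is said by it of a common role.

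Genes listed for the abscisic acid pathway outside the family were grouped by role, in 48 genes. Peaks were on 13 of them in both replicates, or 27.1%, beside 8.66% of all protein-coding genes. A further 5 had a peak in replicate 2 alone and 30 had none. Over all protein-coding genes, 11.8% had a peak in one replicate alone, counting either replicate. With the body alone, 12 of the 48 genes had peaks in both replicates, beside 5.86% of all protein-coding genes. ABA4 was the gene that the flank added. The median length of the 48 genes was 2716 bp, against 2078 bp for all protein-coding genes, and the part of length in the count was not tested. The lists were drawn up with earlier results of these data known and were not tested.

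Clade A phosphatases, the direct targets of the receptors, had peaks in both replicates on 5 of 9 genes, beside 8.66% of all protein-coding genes. HAI1 (AT5G59220), a phosphatase gene known to be strongly induced by abscisic acid, scored 63.2 in replicate 1 and 168.5 in replicate 2, at chromosome 5, 23894303 to 23896751. HAI2 (AT1G07430), its relative, scored 78.9 and 60 at chromosome 1, 2280891 to 2283173. PP2CA (AT3G11410), an inhibitor of guard cell and seed responses, scored 77.9 and 78.6 at chromosome 3, 3583651 to 3586136, and its peaks covered 100% and 96.3% of the body.

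The other 2 phosphatase genes with peaks had lower scores. AHG1 (AT5G51760), which acts in germinating seeds, scored 37.6 and 26.8 at chromosome 5, 21026447 to 21027785. HAI3 (AT2G29380) scored 20.3 and 20.5, close to the lowest scores of the lists, and its peaks shared 216 bp. ABI1, ABI2, HAB1 and HAB2, the founding phosphatases of the pathway, had no peak within 1 kb. With peaks of at least 50 alone, HAI1, HAI2 and PP2CA remained, beside 3.74% of all protein-coding genes that kept a peak in both replicates at that score.

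The list of SnRK2 kinases took in all 10 genes of that name, not only those activated through the receptors. None of the 10 had a peak in both replicates (exact 95% upper limit 30.8%, counting error only), beside 8.66% of all protein-coding genes. The genes were not drawn at random, so nothing is inferred from that limit. SNRK2.9 had 2 peaks in replicate 2, of 25.4 on the body and 35.1 in the flank, and the flank peak touched SCPL9. OST1, SNRK2.2 and SNRK2.3, the kinases activated through abscisic acid receptors, had no peak within 1 kb in either replicate.

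Among 11 transcription factor genes of the pathway, ABI3 and ABI4 had peaks in both replicates, 18.2% beside 8.66% of all protein-coding genes. The peaks of ABI3 scored above 72.6% of the list in replicate 1 and 65.4% in replicate 2, and those of ABI4 above 64.3% and 71.4%. ABI5 had a peak of 22.5 and DPBF2 one of 21.1, each in replicate 2 alone. ABF1, ABF2, ABF3 and ABF4, which act on hormone-responsive genes in seedlings, had none.

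Synthesis genes had peaks in both replicates on 4 of 10, beside 8.66% of all protein-coding genes, and on 3 of 10 with the body alone, beside 5.86%. NCED enzymes cleave carotenoids in the first committed step of abscisic acid synthesis. NCED5 (AT1G30100) had a peak of 117.0 and another of 27.6 in replicate 1, and 1 of 129.6 in replicate 2 that spanned the whole body, at chromosome 1, 10570517 to 10574271. NCED2 (AT4G18350) scored 110.5 and 127.1 at chromosome 4, 10142345 to 10144630. NCED6 (AT3G24220) scored 40.3 and 42.7 on the body at chromosome 3, 8760959 to 8762900, and a further peak of 20.2 lay in its flank in replicate 1.

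NCED3, the drought-induced member, had a peak of 55.6 and NCED9 one of 21.0, each in replicate 2 alone. ABA4 was counted through its flank: peaks of 107.5 and 60.4 lay 315 bp and 342 bp from its body and touched RBCS1A instead. Of the synthesis genes without a peak, ABA1 came near the rule, with peaks of 75.4 and 103.9 at 2.35 kb and 2.42 kb. These scores match those of the best peaks of AT5G67020, named above as like PYL6, whose locus number comes just before that of ABA1 (AT5G67030). They are thus probably the same peaks, not further ones.

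Breakdown and transport of the hormone gave 1 gene of 4 each in both replicates, beside 8.66% of all protein-coding genes. CYP707A4 (AT3G19270), for an abscisic acid hydroxylase, scored 25.89 and 47.96 at chromosome 3, 6675380 to 6676775, while CYP707A1, CYP707A2 and CYP707A3 had no peak within 1 kb. BGLU18 (AT1G52400), whose product releases the hormone from its glucose ester, scored 21.0 and 26.6, and its peaks shared 132 bp. ABCG25, ABCG40 and NPF4.6, for transporters, had none.

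**Figure D3:**
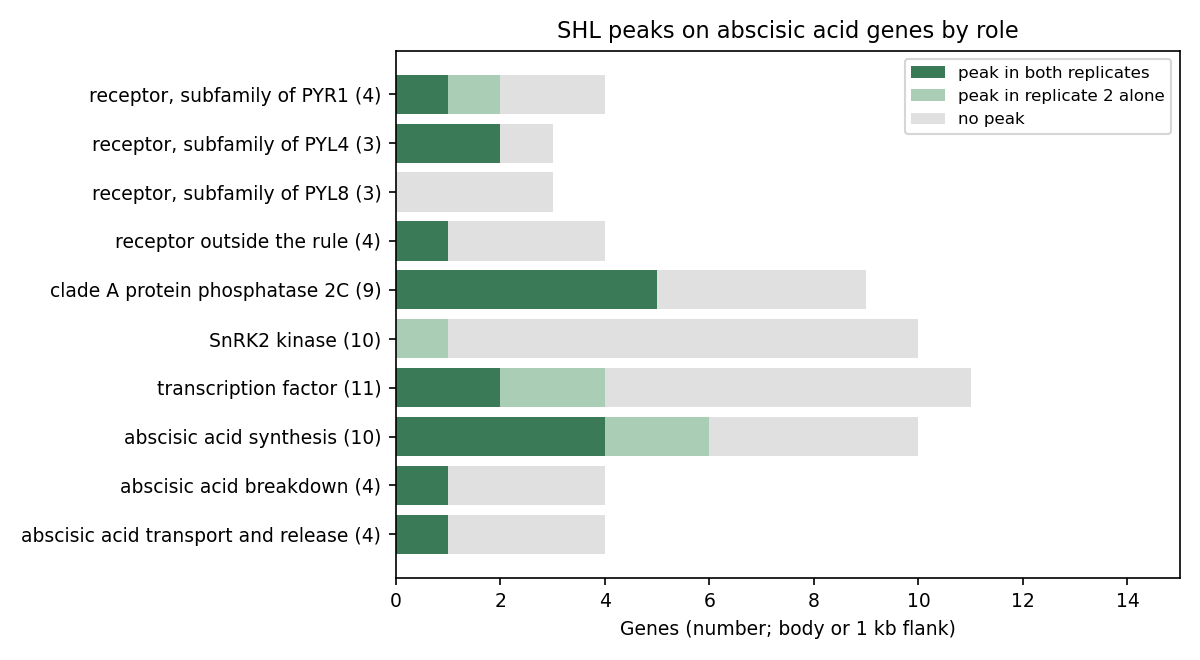
Number of genes with a peak on the body or within 1 kb in both replicates, in replicate 2 alone or in neither, for each role in the abscisic acid pathway; the number of genes in each list is in parentheses. Clade A phosphatases had 5 of 9 genes with peaks in both replicates, synthesis genes 4 of 10 and SnRK2 kinases none of 10, and no gene of the lists had a peak in replicate 1 alone.

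**Figure D4:**
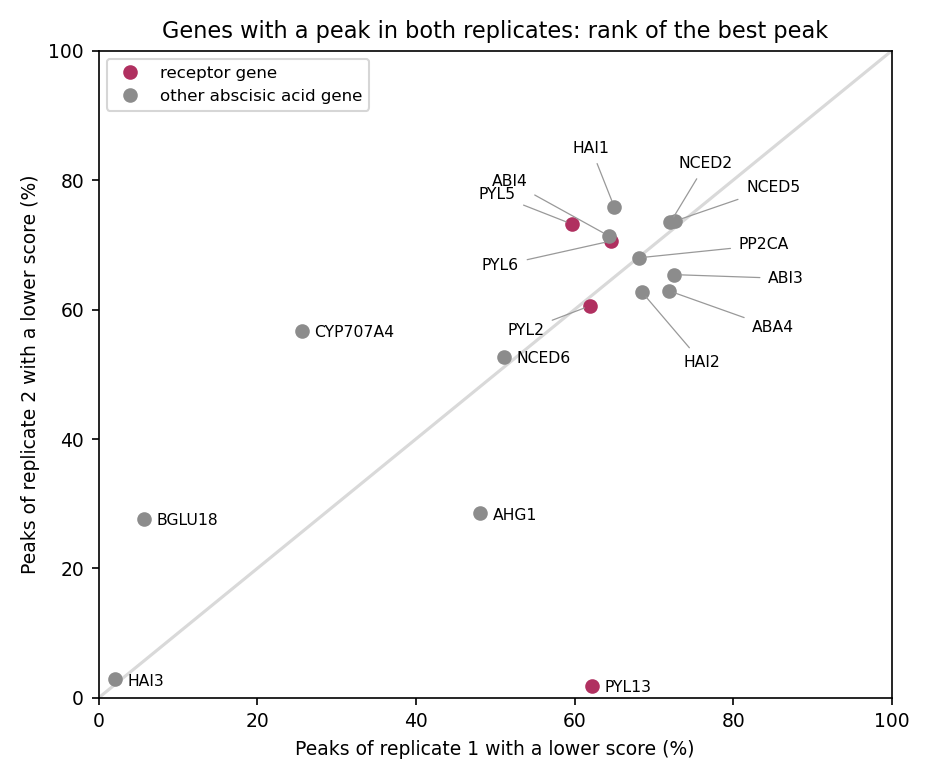
Rank of the best peak of each abscisic acid gene with a peak in both replicates, as the percentage of nuclear peaks with a lower score in ChIP replicate 1 (horizontal) and ChIP replicate 2 (vertical); the line marks equal ranks. PYL2, PYL5 and PYL6 lie with HAI1, HAI2, PP2CA, ABI3, ABI4, NCED2, NCED5 and ABA4 at ranks of 59.7% or more in both replicates, while PYL13 falls to 1.84% in replicate 2 and HAI3 is under 3% in both. The peaks ranked for ABA4 lie in its flank, outside its body, and touch RBCS1A.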

How the data were processed

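SHL-HA was precipitated in 2 ChIP-seq samples; their 2 inputs were not used here. The submitters' processing notes name Bowtie2 (2.2.8), SAMtools (1.3), MACS (1.4) and the TAIR10 build. The caller's settings and control are not given in the sources used here. Each deposited peak has a score that the authors' caller gave it, in 1 list per sample. Depth is unknown.

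Nuclear peaks were joined to RefSeq gene bodies of assembly TAIR10.1, whose positions were taken as those of TAIR10. As a check, midpoints of common regions fell in protein-coding bodies for 57.0% without a shift, and for 29.0% and 29.8% when moved by -1500 bp and 1500 bp. Gene positions themselves are not given. Strand, exons and sequences were not used here, so planned promoter and protein comparisons were not run. All 62 listed genes were found by locus, 58 of them under the same symbol. An overlap of 1 bp or more counted, and a common region is the union of overlapping peaks from both lists. Intervals are Clopper-Pearson. No significance test was run; the joins were tested on simulated data. Python 3.11.15, pandas 2.3.3, NumPy 2.4.6, SciPy 1.17.1 and Matplotlib 3.10.9 were used.

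The members and lists were chosen with earlier results of these data known. Named were all receptors, pathway genes with peaks in both replicates, neighbours of receptor genes with peaks, and the 3 genes most like PYL6; other names were added after their values were seen. Alternatives were other flanks, score minima, overlaps and placements, and each replicate alone.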

Additional observations from a re-analysis of the deposited data

How the results depend on the processing

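PYL2, PYL5 and PYL6 kept peaks in both replicates with the gene body alone, flanks of 500 bp and 2000 bp, peaks of at least 50, peak midpoints in place of any overlap, and a reciprocal overlap of 50%. With peaks of at least 100 alone, the receptor genes numbered 0 in replicate 1, 1 (PYL5) in replicate 2, 0 in both, 0 with overlapping peaks and 0 with a common region midpoint in the body, because the other receptor peaks score under 100. Without replicate 1 or replicate 2, 3 to 4 receptor genes had a peak and 3 to 3 a midpoint in the body; PYL3 is the gene that replicate 2 adds. Settings added after the data were seen changed the pathway counts: with peaks of at least 50, 8 of the 48 genes and 3 of the 9 phosphatase genes had peaks in both replicates, against 13 and 5. With single replicates these were 13 to 18 and 5 to 5. With the gene body alone, the pathway and phosphatase counts in both replicates were 12 and 5. The share of all protein-coding genes with a peak in both replicates was 5.86% on the body alone, 7.08% with flanks of 500 bp, 11.7% with 2000 bp, 3.74% with peaks of at least 50, 2.71% with at least 100 and 14.4% to 14.8% in single replicates. Scores and widths are values of one list, so no other setting gives another value. No paired analysis was possible because the input samples that share replicate numbers with the ChIP samples entered no comparison and no result comes from a test.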
